A study of Mus musculus with 7 samples.

Results

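The TNF superfamily genes measured here are the ligands and receptors whose symbols matched a fixed pattern in the raw count table (Tnfsf and Tnfrsf genes with a number, and Tnf, Lta, Ltb, Ltbr, Fas, Fasl, Cd40, Cd40lg, Cd27, Cd70, Ngfr, Eda, Edar and Eda2r). The pattern found 45 genes, 18 ligands and 27 receptors, among 26583 gene entries. They were read in lymphatic endothelium, the inner lining of lymphatic vessels, from the mouse ear pinna, in 3 libraries of naive skin and 4 of BPC melanoma. Naive replicates 1 and 3 came from mice labelled BrafCA/+; pten l/l; Cre-, and the label of naive replicate 2 lists that genotype together with Braf+/+;pten l/l Cre+. The tumour libraries came from mice labelled BrafCA/+; pten l/l; Cre+, so every mouse in the comparison carried the pten l/l allele. The sources used here do not state the age of the mice, the Cre driver, the sort, or the number of mice behind each library. The tumour libraries carry different tumour numbers and the libraries of each group differ in sex, so they are not repeats of a single sample, and each p-value is set against the variation among them. Naive replicate 1 was pooled from both sexes, naive replicate 2 and tumour replicates 3 and 4 were female, and naive replicate 3 and tumour replicates 1 and 2 were male. The labels' lane tag placed naive replicates 1 and 2 on lane 7, tumour replicates 1, 2 and 4 on lane 6, and naive replicate 3 with tumour replicate 3 on lane 8.

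TNF superfamily ligands are membrane proteins that act as trimers, some of them after being shed, and they signal by clustering their receptors. Receptors with a cytoplasmic death domain can recruit adaptors that lead to caspase activation or to NF-kB, others bind TRAF adaptors directly, and decoy receptors bind ligand without signalling. In lymphatic endothelium the family is known for TNF responses in inflammation and for the lymphotoxin and RANK signals that shape lymph nodes.

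Library totals were 52940832 to 63032175 counts, and a floor of 3 counts corresponded to 0.0479 to 0.0521 CPM (counts per 1000000, scaled by TMM factors). The lymphatic markers were present throughout: the 12 markers summed to 12745 to 15692 CPM in naive and 10989 to 14541 CPM in tumour libraries, with 0 of 12 passing the test. Fibroblast, macrophage, melanocyte, mural cell and blood endothelial marker sums stood higher in every tumour library than in any naive library. Lymphocyte, keratinocyte and Schwann cell sums overlapped. The 7 mural cell markers summed to 3.56 to 4.28 CPM in naive and 6.12 to 115 CPM in tumour libraries. The 12 fibroblast markers summed to 701 to 1270 CPM in naive and 1827 to 18584 CPM in tumour libraries, with the highest sum in tumour replicate 4. The 15 macrophage and dendritic cell markers summed to 166 to 227 and 361 to 658 CPM, and the 9 melanocyte markers to 1.2 to 5.42 and 12.2 to 119 CPM. The 14 lymphocyte markers summed to 2.39 to 7.41 CPM in naive and 1.97 to 14.5 CPM in tumour libraries, and Cd3g, Cd8a and Ms4a1 were among those at 0 in all 7. In such bulk libraries, fewer cells of a type and less RNA per cell cannot be told apart.

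Naive lymphatic endothelial cells carried RNA for a small set of receptors and few ligands. Of the 45 genes, 12 had at least 1 CPM in every naive library, 18 had counts but fell below that level in at least 1 library, and 15 had no count in any naive library. Of all gene entries, 39.3% reached 1 CPM in every naive library, against 26.7% of the family. The 12 were 9 receptors (Tnfrsf1a, Fas, Tnfrsf10b, Ltbr, Cd40, Tnfrsf11a, Tnfrsf12a, Eda2r and Tnfrsf22) and 3 ligands (Ltb, Tnfsf10 and Tnfsf12). Per kb of exon, 3 receptors led in naive skin. Tnfrsf1a, which encodes TNF receptor 1, was at 91.4 ± 8.19 CPM per kb (SD, n = 3), Ltbr, which encodes the lymphotoxin beta receptor, at 41.8 ± 2.09, and Tnfrsf11a, which encodes RANK, at 17.9 ± 5.88. Together they made up 74.7% to 78% of the family's RNA per kb in naive libraries and 59.2% to 69.8% in tumour libraries. The next 3 in naive skin, Cd40 at 9.44 ± 1.1, the ligand gene Tnfsf12 at 9.27 ± 1.03 and the Tnfsf12 receptor gene Tnfrsf12a at 8.35 ± 1.7 CPM per kb (SD, n = 3), differed by less than their spread. Ltb followed at 3.93 ± 1.54 and the decoy receptor gene Tnfrsf22 at 2.98 ± 1.34 CPM per kb, again within the spread. In tumour the order began with Tnfrsf1a at 59 ± 8.81 and Ltbr at 56 ± 9.81 CPM per kb (SD, n = 4), levels that no longer differed beyond their spread.

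**Figure D1:**
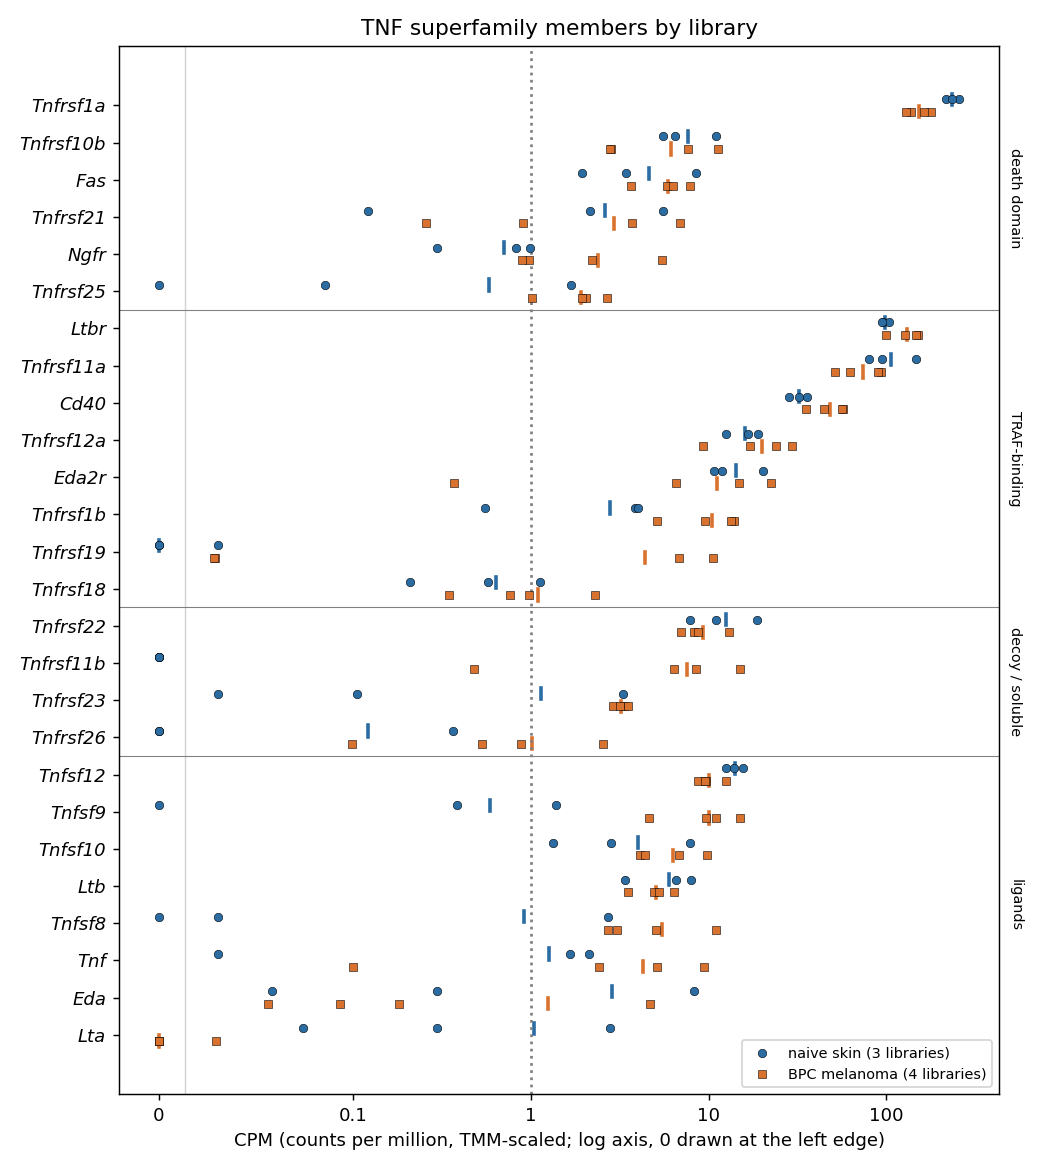
CPM of each family member with a group mean of at least 1 CPM, by library, on a log axis with 0 drawn at the left edge; circles are the 3 naive and squares the 4 tumour libraries, short bars are group means and the dotted line marks 1 CPM. Tnfrsf1a, Ltbr and Tnfrsf11a stand at the right with tight groups, while Tnfrsf11b is at 0 in all 3 naive libraries and at 0.475 to 15 CPM in the 4 tumour libraries.

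The 250 bases upstream of the RefSeq start (GRCm38.p6) are shown for these 3 leading receptors and for Tnfrsf1b, which encodes the other TNF receptor, so that the sequences in front of the well expressed genes can be read beside it. Capitals mark matches, on either strand, to the NF-kB consensus, AP-1 (TGANTCA), the GC box (GGGCGG) or the TATA box (TATAAA), and none of the matches shown overlaps another. The window of Tnfrsf1a lies on chromosome 6 from 125349473 to 125349722 on the plus strand and has 0 matches; the GENCODE gene model starts before it, at 125349362, so the window lies inside that model.
Tnfrsf1a: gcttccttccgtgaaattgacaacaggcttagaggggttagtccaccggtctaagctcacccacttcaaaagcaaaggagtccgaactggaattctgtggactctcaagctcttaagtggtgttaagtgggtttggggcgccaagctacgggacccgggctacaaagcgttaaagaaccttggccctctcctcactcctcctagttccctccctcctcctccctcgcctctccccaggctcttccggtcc
The window of Ltbr lies on chromosome 6 from 125313886 to 125314135 on the minus strand and has 2 GC boxes.
Ltbr: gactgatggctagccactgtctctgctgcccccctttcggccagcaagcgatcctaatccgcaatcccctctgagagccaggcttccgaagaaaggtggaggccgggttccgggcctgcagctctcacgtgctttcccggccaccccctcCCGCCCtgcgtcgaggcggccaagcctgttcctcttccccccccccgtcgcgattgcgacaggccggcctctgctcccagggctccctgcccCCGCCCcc
The window of Tnfrsf11a lies on chromosome 1 from 105780473 to 105780722 on the plus strand and has 4 GC boxes.
Tnfrsf11a: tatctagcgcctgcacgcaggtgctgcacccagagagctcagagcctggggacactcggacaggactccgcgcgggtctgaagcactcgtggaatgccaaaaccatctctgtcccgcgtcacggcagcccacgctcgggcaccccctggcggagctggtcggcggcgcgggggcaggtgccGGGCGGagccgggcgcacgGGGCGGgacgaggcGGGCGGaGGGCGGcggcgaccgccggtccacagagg
The window of Tnfrsf1b lies on chromosome 4 from 145246871 to 145247120 on the minus strand and has 2 GC boxes.
Tnfrsf1b: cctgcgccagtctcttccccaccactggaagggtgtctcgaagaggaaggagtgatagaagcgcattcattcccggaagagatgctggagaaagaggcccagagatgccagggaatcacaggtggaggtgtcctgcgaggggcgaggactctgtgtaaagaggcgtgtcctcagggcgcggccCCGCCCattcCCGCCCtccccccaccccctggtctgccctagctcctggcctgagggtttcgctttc
Over the 39 windows found for 35 of the 45 genes, a GC box was present in 46.2%, AP-1 in 15.4%, the TATA box in 17.9% and the NF-kB consensus in 7.69%, the last in windows of Ltb, Tnfrsf8 and Tnfrsf9. Over all 32851 windows of the same length the shares were 32.7%, 6.75%, 12.4% and 3.9%. These are matches of letters and not sites of binding. CpG dinucleotides stood at a median 0.518 of the number expected from base content in the 8 genes expressed in naive skin that had a window, 0.498 in the 16 low or uneven genes and 0.353 in the 11 genes at 0, beside 0.403 over the 27025 genes with a window (the highest window per gene).

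Between tumour and naive skin 1 member of the family passed the test. Of the 26 genes that passed the filter on low counts, 1 was higher in tumour, Tnfrsf11b, and 0 were lower (quasi-likelihood test of edgeR, Benjamini-Hochberg adjusted p over 13453 genes), which is 3.85% of those tested. Over all genes tested 0.899% were higher and 0.803% lower. At an unadjusted p under 0.05 there were 6 of the 26 (23.1%), beside 16.9% of all genes. The groups did not overlap for 5 of the 26 (19.2%), beside 18% of all genes. Of these 5, Tnfrsf11b, Tnfsf9 and Tnfrsf1b stood higher in tumour, where 9.57% of all genes did, and Tnfrsf1a and Tnfsf12 lower, where 8.46% did. DESeq2 called 3, Tnfrsf11b and Tnfsf9 higher and Tnfrsf1a lower, beside 9.36% of all genes with an adjusted p. The median log2 fold change was 0.39 over the 26 members and 0.04 over all genes tested. A member can pass the filter through tumour alone, so neither this median nor these counts stand for the 45 genes. Of the 19 genes not tested, 8 were at 0 in all 7 libraries and 11 had counts in too few.

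**Figure D2:**
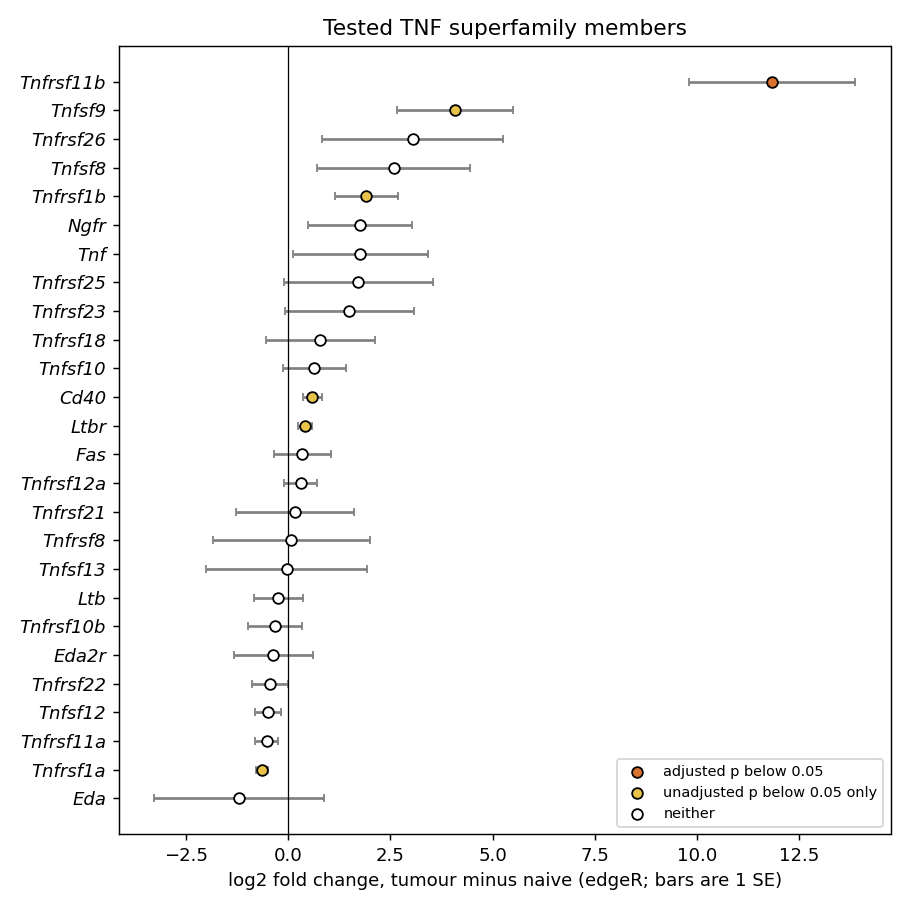
Log2 fold change (tumour minus naive) of the 26 tested members with bars of 1 SE, filled by the p-value each reached. Tnfrsf11b at 11.83 is the 1 member past the adjusted threshold, and its fitted value depends on how a gene at 0 in naive libraries is offset. Tnfrsf1a at -0.63, Tnfsf9 at 4.09, Tnfrsf1b at 1.91, Cd40 at 0.59 and Ltbr at 0.42 have an unadjusted p under 0.05 only.

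Tnfrsf11b encodes osteoprotegerin, a secreted receptor that binds the RANK ligand and TRAIL and keeps them from their signalling receptors. It lies on chromosome 15 from 54250619 to 54278484. It had 0 counts in each of the 3 naive libraries and 906, 29, 403 and 510 counts in tumour replicates 1, 2, 3 and 4. All 4 tumour libraries stood above the naive libraries, with tumour replicate 2 far below the rest. The tumour mean was 7.61 ± 5.99 CPM (SD, n = 4), at least 147-fold higher than the floor of 3 counts per naive library, and the adjusted p was 0.0484 (edgeR). The call was lost without any of the naive replicates (adjusted p = 0.109 to 0.131), without tumour replicate 1, 3 or 4 (0.0859 to 0.104), with RLE scaling (0.0502), with the replicate number as a block (0.234), with lane (0.525) or sex (0.162) as a term, and with limma on the deposited log2 values (0.117). On lane 8, the only lane with both groups, the counts were 0 in the naive and 403 in the tumour library. Fibroblast marker sums were 2916, 1827, 6319 and 18584 CPM in tumour replicates 1 to 4, and mural cell marker sums 26.9, 6.12, 25.7 and 115 CPM. The lowest sum of each list and the lowest Tnfrsf11b count fell in the same library, and the highest did not. Macrophage and melanocyte sums were lowest in tumour replicate 1. The part of other cells in the Tnfrsf11b signal was not tested.

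The remaining decoy receptor genes, Tnfrsf22 and Tnfrsf23, encode mouse receptors that bind TRAIL without a death domain, and Tnfrsf26 is their neighbour on chromosome 7. The copies are similar in sequence, so counts may be split between them and each value is uncertain. Tnfrsf22 was at 11, 18.8 and 7.83 CPM in naive and 13, 8.23, 8.78 and 7.02 CPM in tumour libraries, and the groups overlapped. Tnfrsf23 was at 0.0172, 0.104 and 3.3 CPM in naive replicates 1 to 3 and at 2.89 to 3.5 CPM in the tumour libraries. Naive replicate 3 thus stood within the tumour range and the others near the floor (adjusted p = 0.725). Tnfrsf26 ranged from 0 to 0.363 CPM in naive and 0.0984 to 2.56 CPM in tumour.

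Both TNF receptors had groups that did not overlap, in opposite directions, and neither passed edgeR's test. Tnfrsf1a, the broadly expressed receptor for soluble TNF, lies on chromosome 6 from 125349362 to 125362484. It was at 217, 259 and 234 CPM in the naive libraries and at 139, 179, 164 and 129 CPM in the tumour libraries. Every tumour library stood below every naive library. Mean levels were 237 ± 21.2 CPM (SD, n = 3) and 153 ± 22.8 CPM (SD, n = 4). The log2 fold change was -0.63 (SE 0.15), which did not pass edgeR's test (adjusted p = 0.0788) and passed with DESeq2 (adjusted p = 0.00375). Within lane 8 the log2 difference was -0.51, and over the alternatives the log2 fold change ran from -0.72 to -0.51 with adjusted p-values of 0.00375 to 0.664.

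Tnfrsf1b encodes TNF receptor 2, which lacks a death domain and is activated best by membrane-bound TNF. It lies on chromosome 4 from 145213463 to 145246870. It was at 0.55, 3.86 and 3.99 CPM in naive replicates 1 to 3 and at 14, 13.4, 5.11 and 9.54 CPM in tumour replicates 1 to 4. The groups did not overlap, though tumour replicate 3 stood close to the 2 higher naive libraries. The log2 fold change was 1.91 (SE 0.77) with an adjusted p of 0.257 (edgeR), so the difference did not pass, and within lane 8 the log2 difference was 0.35. Per kb, Tnfrsf1b made up 0.172%, 1% and 1.14% of the RNA of both TNF receptors in the naive libraries and 6.4%, 4.83%, 2.07% and 4.78% in tumour replicates 1 to 4, a share computed after the values were seen. The share was below that of every tumour library in every naive library, and Tnfrsf1a held most of the pair's RNA in all 7. Macrophage marker sums were also higher in tumour, at 361 to 658 CPM beside 166 to 227 CPM in naive libraries. Among tumour libraries they were lowest in replicate 1, where Tnfrsf1b was highest. The part of other cells in the Tnfrsf1b level was not tested.

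Of the 7 death domain receptors 6 were tested and 0 passed, with a median log2 fold change of 0.27. Tnfrsf10b, which encodes the mouse TRAIL death receptor, was at 5.53 to 11 CPM in naive and 2.77 to 11.3 CPM in tumour libraries. Fas, the receptor for Fas ligand, was at 1.95 to 8.5 and 3.67 to 7.86 CPM. Both were present in all 7 libraries at levels that overlapped. Tnfrsf21, known as death receptor 6, varied within groups more than between them, from 0.121 to 5.53 CPM in naive and 0.255 to 6.93 CPM in tumour. Tnfrsf25, the receptor for the ligand of Tnfsf15, had 0, 4 and 97 counts in naive and 61 to 168 counts in tumour libraries. Ngfr, the p75 neurotrophin receptor that marks neural crest and Schwann cells, was at 0.825, 0.99 and 0.294 CPM in naive and 0.977, 0.885, 2.2 and 5.46 CPM in tumour replicates 1 to 4 (adjusted p = 0.569). The highest library, tumour replicate 4, also had the highest Sox10, a neural crest marker, at 12.8 CPM. It had the highest fibroblast, macrophage, melanocyte and mural cell marker sums as well. In tumour replicates 1, 2 and 3 Sox10 was at 6.97, 0.902 and 7.1 CPM. The part of other cells in the Ngfr level was not tested. Edar, the receptor for ectodysplasin A1, had 81 counts in naive replicate 3 and 0 in the other libraries.

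Of the 16 TRAF-binding receptors 8 were tested and 0 passed, with a median log2 fold change of 0.37. Ltbr, whose signalling in endothelium and stroma supports lymph node formation, lies on chromosome 6 from 125306571 to 125313885. It was at 96.6, 104 and 94.6 CPM in naive libraries and at 100, 151, 148 and 128 CPM in tumour replicates 1 to 4. Tumour replicate 1 fell within the naive range and the other 3 stood above it. The log2 fold change of 0.42 (SE 0.17) did not pass (adjusted p = 0.253, edgeR), and within lane 8 the log2 difference was 0.64. Tnfrsf11a, the RANK gene on chromosome 1 from 105780718 to 105847981, was at 147, 79.9 and 94.8 CPM in naive and 93.8, 89.9, 51.3 and 62.9 CPM in tumour libraries. The groups overlapped through naive replicate 2, and the log2 fold change of -0.52 (SE 0.28) did not pass (adjusted p = 0.402, edgeR). Cd40, a costimulatory receptor of antigen-presenting cells that endothelium also carries, was at 32.2, 35.9 and 28.4 CPM in naive and 35.5, 44.5, 56.9 and 56.5 CPM in tumour libraries. Its groups met at naive replicate 2 and tumour replicate 1, and the log2 fold change of 0.59 (SE 0.23) did not pass (adjusted p = 0.238, edgeR).

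Tnfrsf12a, which encodes the TWEAK receptor Fn14, was at 12.6 to 19.1 CPM in naive and 9.3 to 29.6 CPM in tumour libraries. Eda2r, the receptor for ectodysplasin A2, was at 11.9, 10.8 and 20.2 CPM in naive and 14.9, 22.6, 0.367 and 6.55 CPM in tumour replicates 1 to 4. The level in tumour replicate 3 was the only 1 of the 7 below 1 CPM. The T cell costimulatory receptor genes Tnfrsf18 and Tnfrsf8 were at 0.207 to 1.12 and 0.0173 to 1.53 CPM in naive libraries and at 0.344 to 2.29 and 0 to 2.21 CPM in tumour. Tnfrsf19, a receptor known from neural and epithelial tissue, had 1, 0 and 0 counts in naive and 1, 1, 428 and 633 counts in tumour replicates 1 to 4. It did not pass the filter on low counts, and without that filter its adjusted p was 0.189 (edgeR). The ratio of summed counts, scaled by library size, was 757 with a 95% exact interval of 136 to 29916, which covers counting error only. Tumour replicates 3 and 4, which held the Tnfrsf19 counts, also had the highest fibroblast marker sums of the series, 6319 and 18584 CPM. Cdh19, on the Schwann cell list, had 1, 4, 190 and 518 counts in tumour replicates 1 to 4. Acta2, on the mural cell list, had 0, 1, 404 and 1253. Other genes of these lists differed in pattern, Pmp22 with 14501, 19691, 16172 and 11766 counts and Pdgfrb with 1377, 338, 999 and 2699. The part of any of these cells in the Tnfrsf19 counts was not tested.

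Ligand RNA was low in the libraries of both sources, and 0 of the 8 ligands tested (of 18) passed, with a median log2 fold change of 0.31. Ligands made up 7.98% to 9.27% of the family's RNA per kb in naive and 10.3% to 14.1% in tumour libraries. Tnfsf9, which encodes the ligand of the T cell costimulatory receptor CD137, lies on chromosome 17 from 57105325 to 57107757. It had 81, 22 and 0 counts in the naive libraries and 280, 593, 687 and 895 counts in tumour replicates 1 to 4. The lowest tumour library stood above the highest naive library, at 4.63 beside 1.39 CPM. Mean levels were 0.591 ± 0.719 CPM (SD, n = 3) and 10.1 ± 4.26 CPM (SD, n = 4). The log2 fold change was 4.09 (SE 1.42). It did not pass edgeR's test (adjusted p = 0.188) and passed with DESeq2 (adjusted p = 0.00584) and with limma on the deposited log2 values (adjusted p = 0.0333). On lane 8 the counts were 0 in the naive and 687 in the tumour library. Macrophage marker sums were 166 to 227 CPM in naive libraries and 361, 540, 461 and 658 CPM in tumour replicates 1 to 4. They were lowest in tumour replicate 1 and highest in replicate 4, as Tnfsf9 was, while replicates 2 and 3 stood in the other order. The part of other cells in the Tnfsf9 level was not tested. With naive libraries at or near 0, the size of the log2 fold change was not stable. It was 5.71 without naive replicate 1, 3.51 without naive replicate 3, 6.49 with sex as a term, 12.35 with lane as a term and 1.03 on the deposited values, and adjusted p-values over the alternatives ran from 0.00584 to 0.443.

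Tnfsf12, which encodes TWEAK, was the ligand with the highest naive level, at 15.6, 12.5 and 14 CPM in naive and 8.71, 12.5, 9.64 and 9.56 CPM in tumour libraries. Naive replicate 2 and tumour replicate 2 were nearly equal, and the log2 fold change of -0.48 (SE 0.32) did not pass (adjusted p = 0.53, edgeR). Its exons overlap those of the read-through gene Tnfsfm13, as do those of Tnfsf13, so how many reads of either gene came from the read-through transcript cannot be told. Tnfsf13, which encodes the B cell factor APRIL, had 16 to 20 counts in naive libraries and 53, 0, 23 and 0 counts in tumour replicates 1 to 4. Tnfsf10, which encodes TRAIL, was at 1.33 to 7.9 CPM in naive and 4.12 to 9.8 CPM in tumour. Tnfsf8, the CD30 ligand gene, had 0, 156 and 1 counts in naive libraries and 163, 670, 315 and 183 counts in tumour. Of the naive libraries, replicate 2 was close to the lowest tumour library and the others were at or near 0 (adjusted p = 0.567).

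The genes of the lymphotoxin and TNF locus on chromosome 17 differed in pattern although they lie within a few kilobases of each other. Ltb, which encodes the membrane anchor of lymphotoxin, had 196, 456 and 380 counts in naive and 299, 320, 220 and 385 counts in tumour libraries, present in all 7. Tnf, 3061 bases away, had 1, 95 and 123 counts in naive and 311, 579, 151 and 6 counts in tumour replicates 1 to 4. Each group held a library near the floor, naive replicate 1 and tumour replicate 4, and the adjusted p was 0.683 (edgeR). Lta, which encodes the soluble lymphotoxin subunit and lies 1158 bases beyond Tnf, had 162, 17 and 3 counts in naive and 0, 0, 0 and 1 in tumour libraries. The naive counts of Lta came mostly from replicate 1, which was the naive library with the fewest Tnf counts. Lta did not pass the filter on low counts, and without that filter its adjusted p was 0.241. Eda, the ectodysplasin gene, had 482, 2 and 17 counts in naive and 2, 11, 294 and 5 counts in tumour libraries, with 1 high library in each group.

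Such uneven counts were common among weakly expressed members. Of the 19 members with a mean of 1 to 20 CPM over the 7 libraries, 9 (47.4%) differed by 10 times or more between the highest and the lowest naive library, and 6 (31.6%) between tumour libraries. Over all 5505 genes in the same range the shares were 29% and 32.4%. A count above 3 was seen in exactly 1 library for 6 members, namely Cd27, Edar, Tnfrsf14, Tnfsf11, Tnfsf13b and Tnfsf15.

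**Figure D3:**
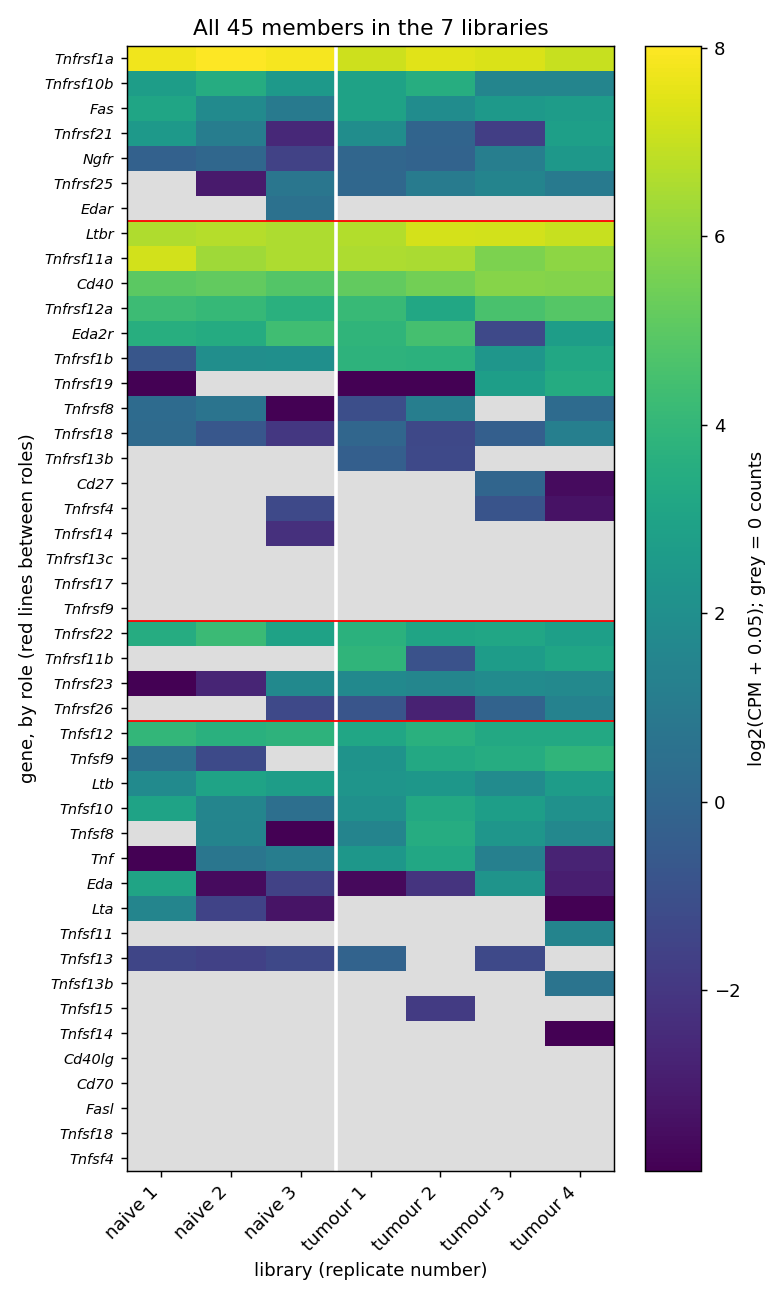
Log2(CPM + 0.05) of all 45 members (rows, by role, red lines between roles) in the 7 libraries (columns, naive left of the white line); grey cells have 0 counts. The top receptors are filled in every column, 8 members are grey throughout, and Tnfrsf11b is grey in the 3 naive columns and filled in the 4 tumour columns.

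Of the 15 members at 0 in naive skin, 6 had more than 3 counts in a tumour library. Tnfrsf11b was found in all 4 and Tnfrsf13b, a receptor of B cell survival factors, in tumour replicates 1 and 2 with 46 and 22 counts. Cd27, a T cell costimulatory receptor, had 59 counts in tumour replicate 3. There Ccr7, a marker of mature dendritic cells that T cells also carry, had 216 counts. The T cell genes Cd3d and Cd3e had 0 in tumour replicate 3, as did the dendritic cell markers Itgax and Flt3 and the leukocyte gene Ptprc. Tnfsf11, which encodes the RANK ligand, had 161 counts and Tnfsf13b, which encodes the B cell survival factor BAFF, 93 counts in tumour replicate 4 alone. In that library the leukocyte gene Ptprc had 378 counts and Cd3e 96, against at most 3 and 0 in the other 6 libraries. The part of leukocytes or fibroblasts in these counts was not tested. Tnfsf15 had 14 counts in tumour replicate 2. In the other direction, Edar, Lta and Tnfrsf14 had more than 3 counts in a naive library and in no tumour library. The share of all genes with either pattern was not computed, so these counts do not set the family apart.

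**Figure D4:**
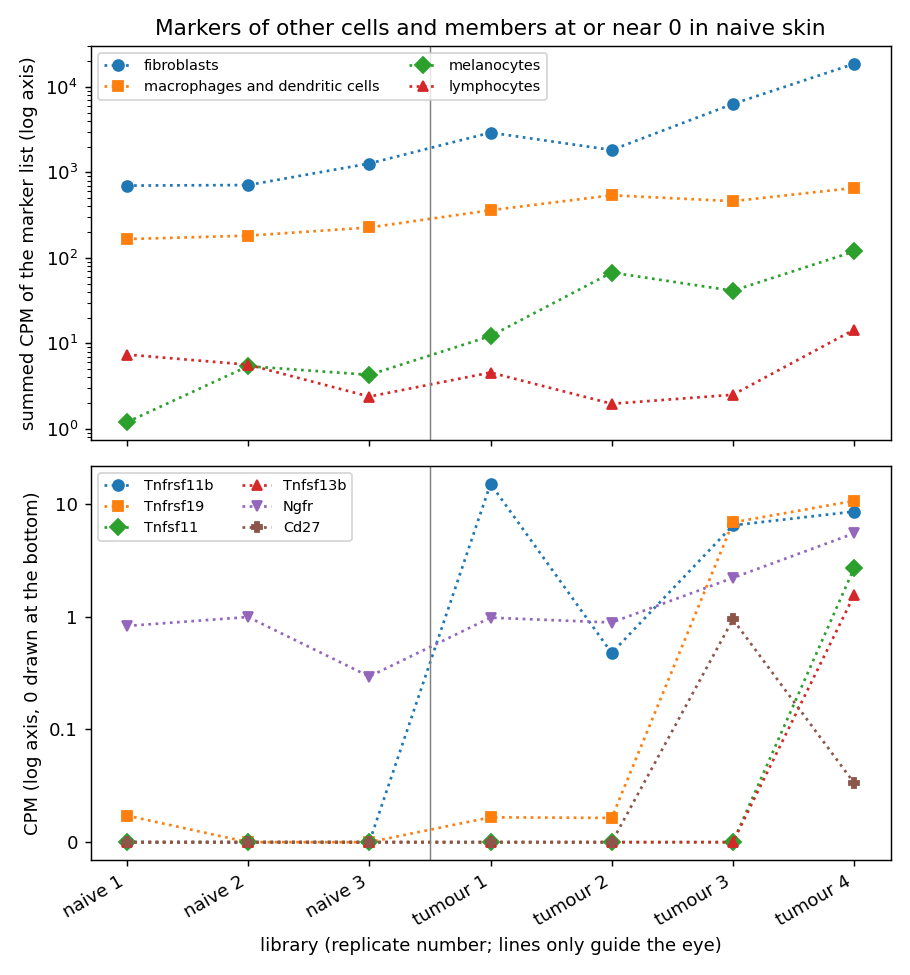
Top, summed CPM of 4 marker lists of other cells by library; bottom, CPM of 6 family members at or near 0 in naive skin (log axes, 0 drawn at the bottom, lines only guide the eye). Tnfsf11 and Tnfsf13b appear in tumour replicate 4 alone, while Tnfrsf11b is highest in tumour replicate 1. Tumour replicate 4 has the highest sum of each of the 4 lists, with fibroblasts at 18584 CPM. The part of any of these cells was not tested.

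Ligands were paired with the receptors they are known to bind to see which pairs had RNA in the same library, with more than 3 counts of each. Of 31 pairs, 4 met this in all 7 libraries: Ltb with Ltbr, Tnfsf12 with Tnfrsf12a, and Tnfsf10 with Tnfrsf10b and with the decoy gene Tnfrsf22. Tnf with either TNF receptor met it in 2 of 3 naive and 4 of 4 tumour libraries. For 13 pairs no library held both. Cd40 and Fas were well covered while Cd40lg and Fasl had 0 counts in every library, and Tnfsf9 had counts in 6 libraries while its receptor gene Tnfrsf9 had 0 in all 7. Tnfrsf11a had 3216 to 8546 counts in each library, beside Tnfsf11 in tumour replicate 4 only. The 8 members at 0 throughout were Cd40lg, Cd70, Fasl, Tnfsf4, Tnfsf18, Tnfrsf9, Tnfrsf13c and Tnfrsf17, most of them known from lymphocytes, and a count of 0 allows up to 3 counts in a library, at most 0.0521 CPM.

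Downstream of the receptors, most genes did not pass. Of 32 adaptors and effectors, all tested, 1 was lower and 0 were higher, beside 0.803% and 0.899% of all genes tested. The median log2 fold change was -0.19, beside 0.04 over all genes tested. The lower gene was Ripk1, a kinase that TNF receptor 1 recruits and that sits between NF-kB activation and cell death, on chromosome 13 from 34002363 to 34037147. It was at 88.9, 131 and 109 CPM in naive and 59.5, 47.1, 61.9 and 47.8 CPM in tumour libraries, with no overlap. Ripk1 fell by 1.02 on the log2 scale (SE 0.19, adjusted p = 0.0398, edgeR), a call that each omission of a library ended (adjusted p = 0.0608 to 0.133). The call was also lost with the replicate block (0.288) and with sex as a term (0.0966). It was lost too with lane as a term, where the log2 fold change was -0.81. Rbck1, a subunit of the linear ubiquitin ligase, at 282 ± 18.2 and 234 ± 39.8 CPM, and Ikbkb, an IkB kinase gene, at 211 ± 3.9 and 185 ± 32.2 CPM (SD, n = 3 and 4), had the highest levels of the list and did not pass.

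Of 25 NF-kB target genes, 22 were tested, 1 was higher and 0 were lower, beside 0.899% and 0.803% of all genes tested. The median log2 fold change was -0.19, beside 0.04 over all genes tested. The higher gene was Selp, which encodes the leukocyte adhesion molecule P-selectin, on chromosome 1 from 164115264 to 164150026. It was at 3.5, 6.84 and 7.42 CPM in naive and 38.5, 20.5, 46 and 41.2 CPM in tumour libraries. The tumour libraries all stood above the naive ones, and Selp rose by 2.63 on the log2 scale (SE 0.41, adjusted p = 0.0219, edgeR). The call was lost without any of the naive replicates (adjusted p = 0.0741 to 0.081) and without tumour replicate 3 (0.0517) or 4 (0.055). It was also lost with the replicate block (0.174) and with sex as a term (0.0966). With lane as a term it was lost too, at a log2 fold change of 2.63. Selp is itself on the blood endothelial marker list. The 10 markers of that list, Selp included, summed to 542 to 662 CPM in naive and 775 to 844 CPM in tumour libraries. The largest of them, Plvap, had means of 377 CPM in naive and 633 CPM in tumour libraries. Emcn, the next largest, went the other way, with means of 199 and 98.8 CPM. The part of blood endothelium in the Selp level was not tested. Icam1, at 1315 ± 175 CPM (SD, n = 3) and 591 ± 216 CPM (SD, n = 4), and Nfkbia, at 546 ± 58 and 466 ± 73.6 CPM, were the most abundant and did not pass (adjusted p = 0.0904 and 0.523). Of 7 lymphotoxin target genes 3 were tested and 0 passed, with a median log2 fold change of 0.26, the lymphatic chemokine gene Ccl21a at 1351 ± 99.8 CPM (SD, n = 3) and 1616 ± 487 CPM (SD, n = 4) and Cxcl12 at 37 ± 16.6 and 136 ± 62.4 CPM (adjusted p = 0.658 and 0.0693).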

How the data were processed

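RNA was sequenced from 3 naive skin and 4 BPC melanoma libraries. Extraction used RNeasy Micro and library preparation SMART-Seq v4, a low-input method that does not mark the strand, per the labels' protocols. The submitters' processing notes name Trimmomatic 0.38 and mm10. The aligner, counter and normalization are not stated in those notes or the labels. The authors deposited a raw count table and normalized log2 values, the latter used in 1 alternative only. Of 26608 entries, 25 whose symbols had become dates (0.174% to 0.236% of counts) were left out.

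The count table was fitted with edgeR 4.0.16 under R 4.3.3 (filterByExpr, TMM, robust quasi-likelihood fits over all 13453 genes kept, Benjamini-Hochberg adjustment, threshold 0.05), with DESeq2 1.42.0 and limma 3.58.1 as alternatives. The steps were tested on simulated data. CPM means carry their SD, lengths and positions come from GENCODE M21 (GRCm38, the mm10 assembly), and upstream sequences from RefSeq. Lane differences added 0.05 CPM before log2. Members, gene lists and tests were chosen with earlier results of these data known, and Tnfrsf26 was put among the decoy receptors after the values were seen. Members were given in full where the adjusted p was under 0.05, where the groups did not overlap at an unadjusted p under 0.05, or where a group mean reached 50 CPM; others by range. Cd40 and further members are also given by library. Of the pathway lists, genes that passed and the 2 most abundant are named. Alternatives were RLE and upper-quartile factors, no filter, each library left out, a term for lane, for sex or for the replicate number, and Ccdc115 left out.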

Additional observations from a re-analysis of the deposited data

Results flagged for a closer look

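In 6 of the 33 family members with more than 3 counts in a tumour library, 1 tumour library stood apart from the other 3 by more than Dixon's 95% limit for groups of 4. Chance flags about 1 in 20 groups of measured values, a rate that does not apply to a gene counted in a single library, which this limit always flags. Tnfsf11 was at 2.69 CPM and Tnfsf13b at 1.55 CPM in tumour replicate 4, and Tnfsf15 at 0.23 CPM in tumour replicate 2, each with 0 in the other tumour libraries. In tumour replicate 3, Cd27 was at 0.942 CPM beside 0 to 0.0334 CPM in the others, Tnfrsf4 at 0.527 CPM beside 0 to 0.0501 CPM, and Eda at 4.69 CPM beside 0.0331 to 0.18 CPM.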

How the results depend on the processing

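The count of 1 member higher in tumour became 0 with RLE factors, the replicate block, lane as a term and sex as a term, 2 with DESeq2 and 0 to 1 with each library left out, and it was 1 with upper-quartile factors, with no filter, without Ccdc115 and with limma, where Tnfsf9 took the place of Tnfrsf11b. The count of 0 lower became 1 with DESeq2 and stayed 0 otherwise. In the fits with 0 members called, an unadjusted p under 0.05 was reached by 6 members (RLE), 3 (replicate block), 3 (lane) and 4 (sex). For pathway genes, the 1 higher became 0 with the replicate block, lane or sex as a term, 2 with limma, 3 with DESeq2 and 0 to 1 with each library left out; the 1 lower became 0 with the same 3 terms, 5 with DESeq2 and 0 to 1 with each library left out, the 1 being a gene other than Ripk1. The causes were not tested. Lane as a term leaves 1 library a group to carry the difference, and sex as a term in effect leaves out naive replicate 1, the only library pooled from both sexes. Same-numbered libraries did not deviate together (correlations of -0.00575, -0.0432 and -0.0604 over 10032 genes), so the numbers do not pair them, and the replicate block called 3 genes of 13453. No log2 fold change of the 8 genes followed through the alternatives changed sign. The count of 12 members expressed in naive skin stayed within 1.5 times under each of its alternatives.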
